A study of Homo sapiens with 12 samples.

Results

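The genes described here encode the proteins of the cytosolic ribosome, the particle that translates messenger RNA in the cytoplasm. They were taken as every gene symbol of the array annotation that consists of RPL (large subunit) or RPS (small subunit), digits and at most one further letter out of A, X and L. Pseudogene symbols and Y-linked copies were left out. Of 14812 genes named by the annotation, 47 fell under this rule, 29 of the large and 18 of the small subunit. Each gene was read from 1 transcript cluster, the array's set of probes for 1 transcribed region, and where a symbol had several the one with the highest mean was used. A filter on low values kept 11105 genes, among them 46 of the 47, 28 of the large and all 18 of the small subunit. RPL39L, a copy of RPL39 known for its expression in testis, did not pass the filter. The acidic stalk proteins RPLP0, RPLP1 and RPLP2, the laminin receptor RPSA, and RPL3 and RPL10 were not analysed here.

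Nearly all ribosomal proteins are built into the particle in equal numbers, and their genes are among the most strongly transcribed housekeeping genes. Most of their mRNAs begin with a C followed by a run of pyrimidines, the terminal oligopyrimidine (TOP) start. Through this start the kinase MTOR, acting by way of LARP1, controls how well the mRNAs are translated, so that their output can change without a change in mRNA level. Several of the proteins have roles outside the ribosome, such as the binding of MDM2 by RPL11 and RPS7.

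LNCaP is an androgen-responsive human prostate cancer line. All cells of the study, the controls included, had been infected with the control plasmid MSCV-LMP. They were grown in full serum or in serum treated with charcoal and dextran, which removes steroid hormones, and received ethanol as vehicle, 1 nM cabazitaxel or 1 nM docetaxel for 16 h. Both drugs are taxanes, which stabilise microtubules, and cabazitaxel is a dimethoxy derivative of docetaxel. The 12 samples formed 6 groups of 2 arrays, namely charcoal serum with vehicle, cabazitaxel or docetaxel and full serum with vehicle, cabazitaxel or docetaxel. All values come from 1 infected line, and nothing in the labels says that the 2 arrays of a group came from separate cultures, so the tests measure only the spread between these arrays.

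The RNA had been amplified before labelling and the arrays were Affymetrix Human Gene 2.0 ST. The array medians ran from 22.2 to 22.4 on the linear scale, and 57.5% of all values lay below 24, which is a floor that compresses differences of dim probes. Precision was set by the number of arrays, since such data carry no read counts. The prostate luminal genes KLK2, KLK3 and TARP were called in full against charcoal serum in vehicle, with log2 differences of 1.62, 1.11 and 1.86 (limma, adjusted p = 0.0014, 0.023 and 1.4e-05). Of the 15 listed luminal genes 9 were tested, these 3 were called, and 5 of the 9 had a positive difference, with a median of 0.074. Another 3, KLK4 (0.39), HOXB13 (-0.24) and KRT18 (-0.20), had an unadjusted p under 0.05 without being called. Of 22 listed markers of basal cells, fibroblasts and leukocytes, 6 were tested. Limma called 0 of them in every comparison, where it called 0% to 2.31% of all genes. The fibroblast genes FN1 (log2 8.62 to 9.43), VIM and THY1 and the leukocyte gene CD68 exceeded the median of all values on all 12 arrays, the basal gene KRT14 on 9 and KRT15 on 6. KRT5, DCN, LUM, CD14 and LYZ stayed below it on all 12.

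The start of these genes is shown first, since it is the feature by which the family is known to be regulated. RefSeq start sequences on GRCh38.p14 were at hand for 42 of the 47 genes. A TOP start was counted where the annotated first base was C and at least the next 4 bases were each C or T, read on the strand of the gene. Of the 42 genes, 28 (66.7%) had such a start, 17 of 25 in the large and 11 of 17 in the small subunit. The share was 5.14% of 27305 genes with an entry and 6.24% of 15842 protein-coding genes. Among the mitochondrial ribosomal protein genes it was 6 of 68 (8.82%). The windows below hold 20 bases before and 20 from the annotated start, 5′ to 3′, with the pyrimidine run in capitals. They belong to genes named further on, first 5 with a TOP start and then 3 without. The clusters read for RPS18 and RPS27 stood among genes of another chromosome. Whether their values come from the locus shown was not tested.
RPL35A (chr3:197950170-197950209, plus strand): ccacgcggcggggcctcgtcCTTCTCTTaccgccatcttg
RPL14 (chr3:40457319-40457358, plus strand): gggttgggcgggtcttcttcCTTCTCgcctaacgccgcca
RPS18 (chr6:33272055-33272094, plus strand): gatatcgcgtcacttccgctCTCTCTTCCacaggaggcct
RPS21 (chr20:62387083-62387122, plus strand): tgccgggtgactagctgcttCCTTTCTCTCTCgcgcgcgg
RPS27 (chr1:153990742-153990781, plus strand): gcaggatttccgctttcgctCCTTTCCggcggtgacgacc
RPS7 (chr2:3575240-3575279, plus strand): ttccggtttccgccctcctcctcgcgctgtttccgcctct
RPS26 (chr12:56041898-56041937, plus strand): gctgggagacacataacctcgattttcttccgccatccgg
RPS27L (chr15:63157458-63157497, minus strand): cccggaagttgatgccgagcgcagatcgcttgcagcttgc
The runs of the 5 shown TOP starts ranged from 6 bases in RPL14 to 12 in RPS21. RPS7 starts with a C but its run ends after 3 bases. A C followed by at least 4 pyrimidines lay within 10 bases of the annotated start in RPS7 and RPS26, but not in RPS27L. Such a run was found for 81.6% of 49 start entries of the members and 33.5% of all 35116 entries. RPS27L, the p53-inducible copy of RPS27, starts with a G and has no run, in contrast to RPS27. The annotated first base need not be the base used in LNCaP, and a match of these letters is a description only.

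Across the 12 arrays most members varied little. The median SD of a member over the 12 arrays was 0.0698 on the log2 scale, against 0.101 for all tested genes, and the median range from the lowest to the highest array was 0.228 against 0.341. The median of the 46 members, each set against its own mean, lay between -0.027 and 0.023 on every array. It was lowest on the second array of charcoal serum with docetaxel and highest on the second array of full serum with docetaxel. These are 2 arrays of the same drug, and the spread of this median between arrays of 1 group was 0.0198 (SD). In every group but full serum with docetaxel, the first array was the higher for 56.5% to 69.6% of the members. Among all tested genes it was 50.4% to 59.3%. In full serum with docetaxel the shares were 45.7% and 53.3%. The large and the small subunit had medians from -0.025 to 0.014 and from -0.065 to 0.036.

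**Figure D1:**
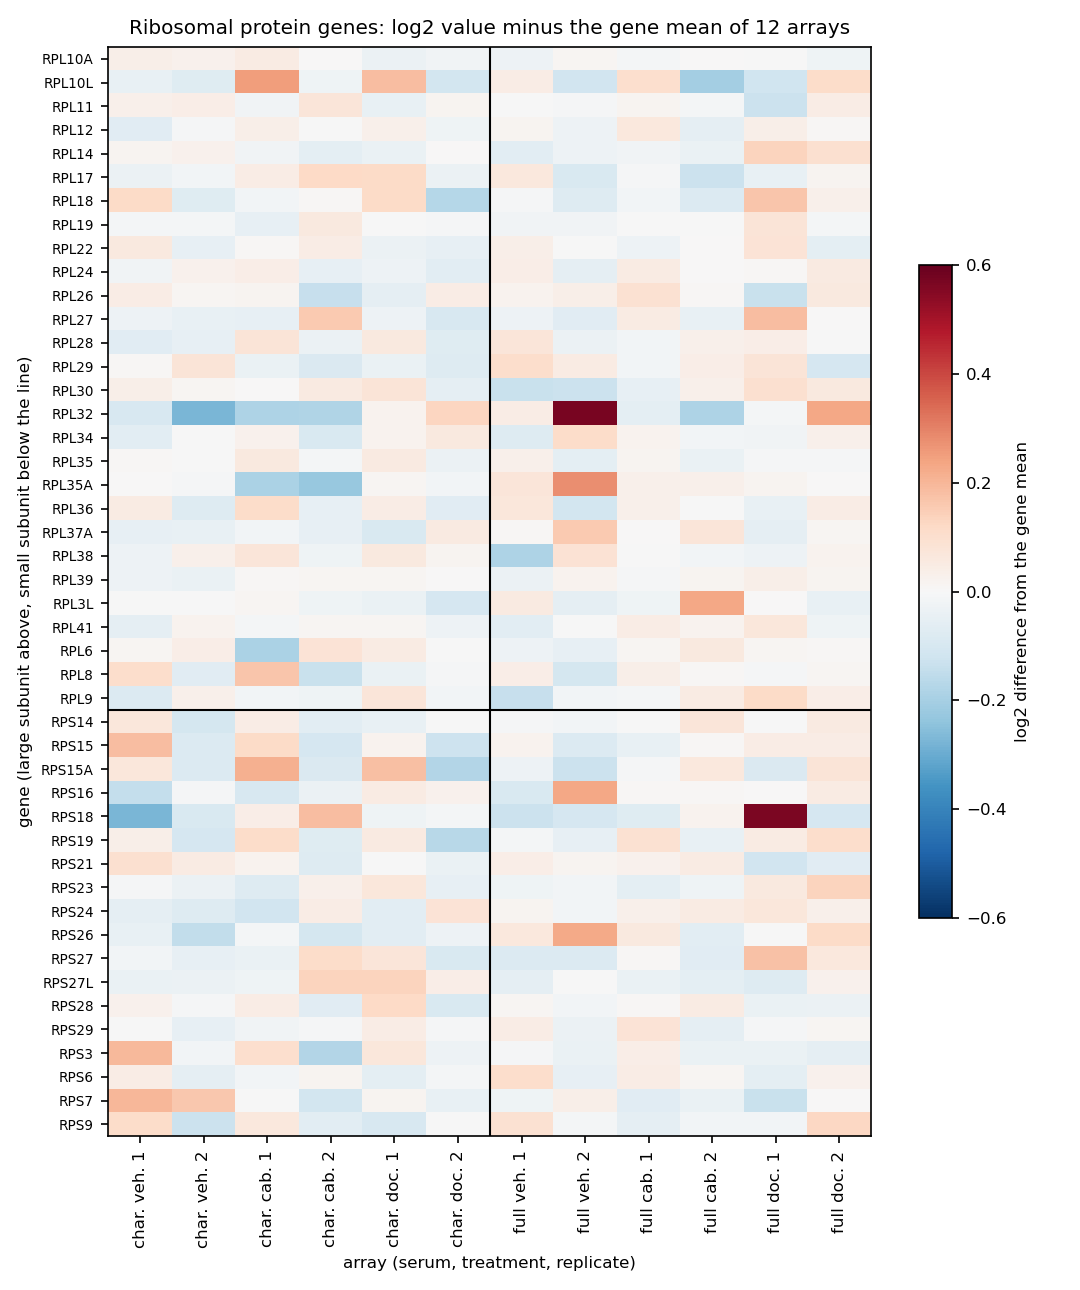
Each cell is the log2 value of 1 of the 46 tested ribosomal protein genes (vertical axis) on 1 of the 12 arrays (horizontal axis) minus the mean of that gene over the 12 arrays, with the colour scale in log2 units. The second array of full serum with vehicle for RPL32 and the first array of full serum with docetaxel for RPS18 are the darkest cells, and no column is of 1 colour throughout.

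Among the members, the 5 with the smallest SD over the 12 arrays were RPL39 (0.0238), RPL10A (0.0274), RPL19 (0.0347), RPL35 (0.0361) and RPL41 (0.0390). RPL39 sits at the exit tunnel of the large subunit, and its 12 log2 values ran from 12.09 to 12.17. RPL39, RPL19 and RPL41 had linear means of 4493, 4967 and 5948 where the highest value of any array was 6307, and the part of the upper end of the scale in their low SD was not tested. The 5 with the largest SD were RPL32 (0.232), RPS18 (0.209), RPL10L (0.139), RPL35A (0.125) and RPS15A (0.122). RPL10L is a retrogene copy of RPL10 used in male germ cells, and its values ran from 5.88 to 6.34. The linear means of 13 members exceeded 1000 and those of 14 were below 64, so that part of the family was read close to the floor. These figures describe the signal of each probe set and not the relative amounts of the mRNAs. The clusters read for RPL39 and RPL19 stood among genes of the other strand, and that of RPS18 among genes of another chromosome. That of RPL41 had scattered neighbours.

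The members did not share 1 profile. Over the 1035 pairs of members the median Pearson r across the 12 arrays was 0.019, and 11.5% of pairs had an r above 0.5. Against the median profile of the other members, r ran from -0.35 for RPL11 to 0.84 for RPS19. RPS15A (0.77) and RPL36 (0.73) followed RPS19. RPL37A (-0.34) and RPL10A (-0.32) stood next to RPL11. The named genes outside the family whose profile was most like the median profile of the members were MIS18A (r = 0.89), TPI1 (0.88), UBE2S (0.88), PYCR1 (0.87), MED4-AS1 (0.87), YIF1A (0.86), GFRA4 (0.86), ROMO1 (0.86), TYW2 (0.86) and EI24 (0.86). These r describe 12 arrays that share their group effects and any array effect, and the profile they follow spans only a few hundredths of a log2 unit.

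The first question was whether serum that still holds its steroids differs from charcoal serum in the ribosomal protein mRNAs. In vehicle-treated cells limma called 0 of 46 members at an adjusted p under 0.05, where 0.396% of all tested genes were called, 44 of 11105. At an unadjusted p under 0.05 there were 4 members, RPL32, RPL35A, RPS26 and RPS7, against 8.57% of all genes. The median difference of the members was 0.0014, with 24 above and 22 below 0, and the median of all tested genes was -0.011. The median size of a difference, regardless of sign, was 0.042 in the members and 0.074 in all genes. The 95% confidence intervals of 45 of the 46 members lay within 0.5 log2 units of 0, beside those of 91.6% of all genes.

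RPL32, a protein of the large subunit (transcript cluster 16950895), had the largest difference of this comparison. In charcoal serum its log2 values were 5.63 and 5.45 with vehicle, 5.54 and 5.55 with cabazitaxel, and 5.75 and 5.86 with docetaxel. In full serum they were 5.77 and 6.30 with vehicle, 5.67 and 5.54 with cabazitaxel, and 5.72 and 5.96 with docetaxel. Only the second vehicle array in full serum stood above all others, and the first lay within the range of the docetaxel arrays. The difference of the vehicle groups was 0.49 (SE 0.15, interval 0.17 to 0.82, limma, adjusted p = 0.281). Without the first vehicle array of full serum it was 0.76, and without the second it was 0.23. Either way 1 array is left in that group, so its spread is not measured.

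RPS26, a small-subunit protein at the mRNA exit channel, read 5.41 and 5.31 in charcoal serum with vehicle, 5.44 and 5.35 with cabazitaxel, and 5.39 and 5.43 with docetaxel. Its values in full serum were 5.52 and 5.68, 5.52 and 5.39, and 5.46 and 5.57 in the same order of treatments. The vehicle arrays of the 2 sera did not overlap, with a difference of 0.24 (SE 0.085, limma, adjusted p = 0.424). With 16 subtracted from each linear value before the logarithm, in case the values hold a constant offset, it was 0.37. RPL30, a large-subunit protein whose yeast counterpart controls the splicing of its own transcript, had the opposite sign with -0.15, and RPS3, a small-subunit protein that also acts in DNA repair, had -0.11.

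RPS7 gave the lowest difference of the serum comparison. Its log2 values in charcoal serum were 4.99 and 4.96 with vehicle, 4.80 and 4.69 with cabazitaxel, and 4.81 and 4.75 with docetaxel. In full serum they were 4.77 and 4.83, 4.73 and 4.76, and 4.66 and 4.80. The 2 arrays of charcoal serum with vehicle stood above the other 10, which overlapped one another. The difference between the sera in vehicle was -0.18 (SE 0.075, interval -0.34 to -0.010, limma, adjusted p = 0.548). RPS7 was read near the floor, at a linear mean of 27.9, and with 16 subtracted the difference was -0.38.

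With cabazitaxel present, full against charcoal serum gave 0 of 46 called members (0.396% of all genes called) and 1 member at an unadjusted p under 0.05 (7.07% of all genes). That member was RPL35A, a large-subunit protein mutated in some cases of Diamond-Blackfan anaemia. Its log2 values in charcoal serum were 6.09 and 6.08 with vehicle, 5.90 and 5.86 with cabazitaxel, and 6.10 and 6.07 with docetaxel. In full serum they were 6.16 and 6.36, 6.12 and 6.12, and 6.10 and 6.09. The 2 arrays of charcoal serum with cabazitaxel were the lowest of the 12, and the second array of full serum with vehicle was the highest. The serum difference was 0.24 with cabazitaxel (SE 0.077, limma, adjusted p = 0.445) and 0.18 with vehicle (limma, adjusted p = 0.553). The value with vehicle was 0.075 without the second array of full serum with vehicle and 0.28 without the first. RPL10L (-0.17), RPL17 (-0.15) and RPS18 (-0.14) had the lowest differences with cabazitaxel, and RPL3L (0.11) and RPL26 (0.11) followed RPL35A. RPL3L is the striated-muscle copy of RPL3, was read near the floor, and its value was 0.32 with 16 subtracted and -0.018 without the second array of full serum with cabazitaxel.

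With docetaxel present, 0 of 46 members were called (0.315% of all genes) and 0 reached an unadjusted p under 0.05 in limma (8.13% of all genes). RPS18 (0.25), RPL27 (0.16) and RPS19 (0.13) had the highest and RPS27L (-0.11), RPS3 (-0.068) and RPS21 (-0.068) the lowest differences. The value of RPS18 was -0.082 without the first array of full serum with docetaxel. With 16 subtracted RPS27L stood at -0.17. Over the mean of the 3 treatments limma called 0 of 46 members, against 2.31% of all genes, 256 of 11105. At an unadjusted p under 0.05 there were 3, all with positive differences, against 13.5% of all genes. They were RPL32 with 0.20 (SE 0.085, limma, adjusted p = 0.337), RPL35A with 0.14 (SE 0.045, adjusted p = 0.149) and RPS26 with 0.13 (SE 0.049, adjusted p = 0.239). The value of RPL32 was 0.28 without the first array of full serum with vehicle (limma, adjusted p = 0.0461). RPS7 (-0.075), RPS27L (-0.068) and RPL17 (-0.063) stood at the other end. The median of the members was 0.013 and that of all genes -0.0014, and 30 of the 46 members had a positive sign against 49.1% of all genes.

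**Figure D2:**
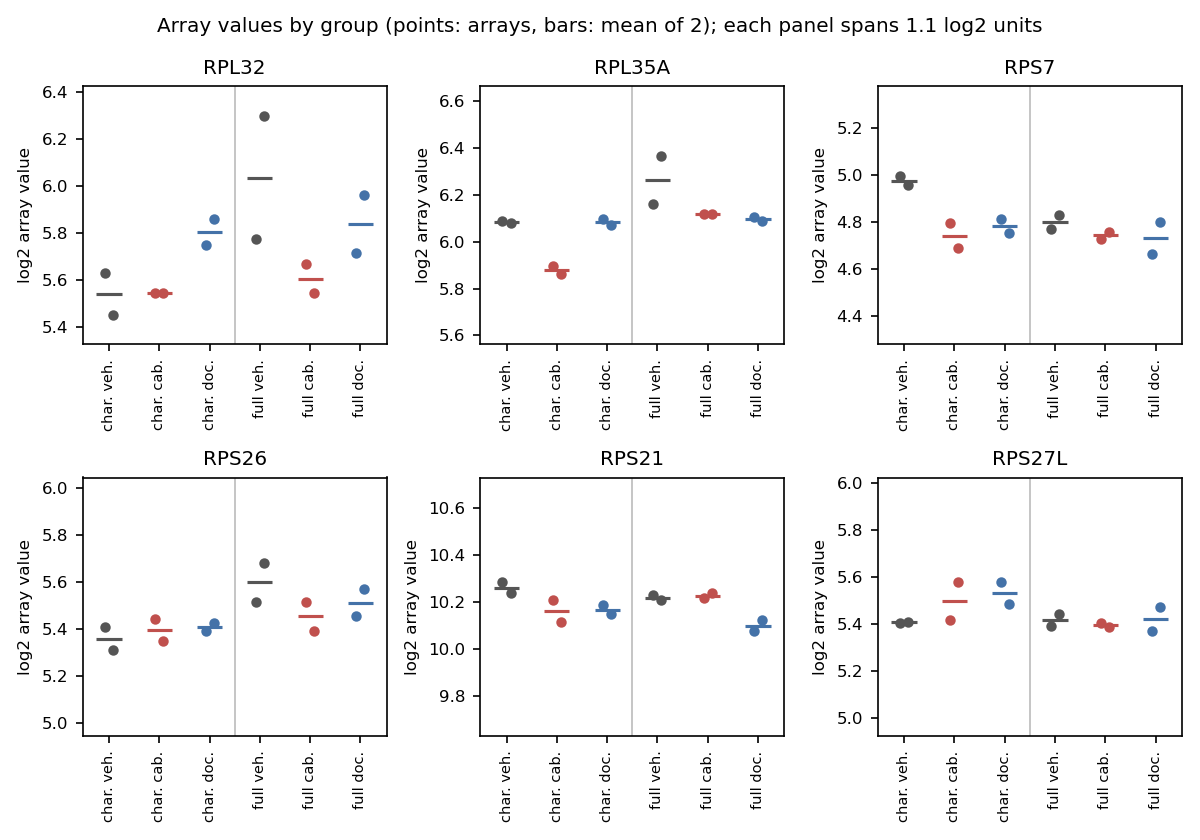
Points are the log2 values of the 2 arrays of each group and bars their mean, for 6 ribosomal protein genes, with the 3 charcoal serum groups left and the 3 full serum groups right of the grey line. Each panel spans the same number of log2 units, so that the gap between the 2 vehicle arrays of RPL32 in full serum (5.77 and 6.30) can be set against the close pairs of RPS21.

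The second question was whether cabazitaxel altered the ribosomal protein mRNAs against vehicle. In charcoal serum limma called 0 of 46 members and 0% of all genes. At an unadjusted p under 0.05 there were 2 members in limma (4.2% of all genes) and 2 in the methods' t-test (3.88% of all genes), which called 0 after Benjamini-Hochberg adjustment. RPS7 had a difference of -0.24 (SE 0.075, interval -0.40 to -0.070, limma, adjusted p = 1.00) and RPL35A one of -0.20 (SE 0.077, limma, adjusted p = 1.00). With 16 subtracted the value of RPS7 was -0.53. The t-test picked RPL35A and RPL39. RPS18 (0.30), RPL10L (0.17) and RPL17 (0.11) were at the upper end, and RPS3 (-0.13) followed RPL35A at the lower.

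In full serum cabazitaxel gave 0 called members (0% of all genes). There was 1 member at an unadjusted p under 0.05 in limma (4.02% of all genes) and 1, RPL19, in the t-test (4.3% of all genes). RPL32 had a difference of -0.43 (SE 0.15, interval -0.75 to -0.11, limma, adjusted p = 0.999), which was -0.17 without the second vehicle array. RPS26 (-0.15) and RPL35A (-0.14) followed, and RPL30 (0.12), RPS15A (0.11) and RPL3L (0.10) had the highest values. Over both sera limma called 0 members (0% of all genes), and 2 had an unadjusted p under 0.05 (4.68% of all genes). RPL35A stood at -0.17 (SE 0.054, interval -0.29 to -0.054, limma, adjusted p = 0.883) and its 4 cabazitaxel and 4 vehicle arrays did not overlap within either serum. RPS7 stood at -0.15 (SE 0.053, limma, adjusted p = 0.973), and at -0.33 with 16 subtracted. RPL32 (-0.21) was also at the lower end, and RPS18 (0.19), RPS15A (0.088) and RPL10L (0.078) at the upper. The median of the members was 0.0096 and that of all genes 0.0021. All 46 intervals lay within 0.5 of 0, beside those of 99% of all genes.

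Docetaxel against vehicle was the next comparison, and it used the same vehicle arrays, so that its values are set beside those of cabazitaxel without a measure of likeness. In charcoal serum limma called 0 members (0% of all genes), with 1 at an unadjusted p under 0.05 (5.11% of all genes) and 3 in the t-test (4.43% of all genes). RPS7 had a difference of -0.19 (SE 0.075, interval -0.36 to -0.028, limma, adjusted p = 0.941), and -0.43 with 16 subtracted. The t-test picked RPS7, RPL10A and RPL39. RPS15 (-0.10) and RPL29 (-0.099) were next at the lower end, and RPL32 (0.26), RPS18 (0.16) and RPS27L (0.13) at the upper. RPS27L read 5.40 and 5.41 with vehicle, 5.42 and 5.58 with cabazitaxel, and 5.58 and 5.48 with docetaxel in charcoal serum. In full serum it read 5.39 and 5.44, 5.40 and 5.38, and 5.37 and 5.47. Its 3 highest arrays were thus in charcoal serum with a drug, while the first cabazitaxel array there lay among the others.

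In full serum docetaxel gave 0 called members (0% of all genes), 3 at an unadjusted p under 0.05 in limma (5.2% of all genes) and 4 in the t-test (4.64% of all genes), namely RPL14, RPL30, RPL6 and RPS21. The 3 of limma were RPL30, RPS27 and RPL14, all with positive differences. RPL30 read 6.30 and 6.27 with vehicle, 6.27 and 6.32 with cabazitaxel and 6.34 and 6.21 with docetaxel in charcoal serum, and 6.13 and 6.13, 6.21 and 6.29, and 6.36 and 6.32 in full serum. The 2 arrays of full serum with vehicle were the lowest of the 12. Its difference was 0.21 (SE 0.071, interval 0.051 to 0.37, limma, adjusted p = 0.88).

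RPL14, a large-subunit protein, read 5.50 and 5.51, 5.46 and 5.43, and 5.45 and 5.49 in charcoal serum, and 5.42 and 5.45, 5.46 and 5.45, and 5.62 and 5.58 in full serum, each in the order vehicle, cabazitaxel, docetaxel. The 2 arrays of full serum with docetaxel were the highest of the 12. The difference was 0.16 (SE 0.064, limma, adjusted p = 0.942). RPS27, a zinc-finger protein of the small subunit whose cluster stood among chromosome 12 genes, read 12.00 on both vehicle arrays and 12.26 and 12.15 on the docetaxel arrays of full serum, a difference of 0.20 (SE 0.084, limma, adjusted p = 0.942). RPS18 had the highest value of this comparison, 0.35, and 0.014 without the first docetaxel array. RPL32 (-0.20), RPL35A (-0.17) and RPS21 (-0.12) had the lowest, and the value of RPL32 was 0.066 without the second vehicle array.

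Over both sera docetaxel gave 0 called members (0% of all genes) and 2 at an unadjusted p under 0.05 in limma (6.05% of all genes). RPS7 stood at -0.13 (SE 0.053, limma, adjusted p = 0.795) and at -0.30 with 16 subtracted. RPS18 stood at 0.26 (SE 0.12, limma, adjusted p = 0.797). RPS21, a small-subunit protein, read 10.29 and 10.24 with vehicle, 10.21 and 10.11 with cabazitaxel and 10.19 and 10.15 with docetaxel in charcoal serum. In full serum it read 10.23 and 10.21, 10.22 and 10.24, and 10.08 and 10.12. All 4 docetaxel arrays lay below all 4 vehicle arrays, and the difference was -0.11 (SE 0.048, interval -0.21 to 0.00027, limma, adjusted p = 0.797). RPL29 (-0.095) was the third at the lower end, and RPS27 (0.11) and RPL9 (0.11) followed RPS18. The median of the members was 0.023 over both sera and that of all genes 0.0091, and after quantile normalization between the arrays the median of the members was -0.0064.

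**Figure D3:**
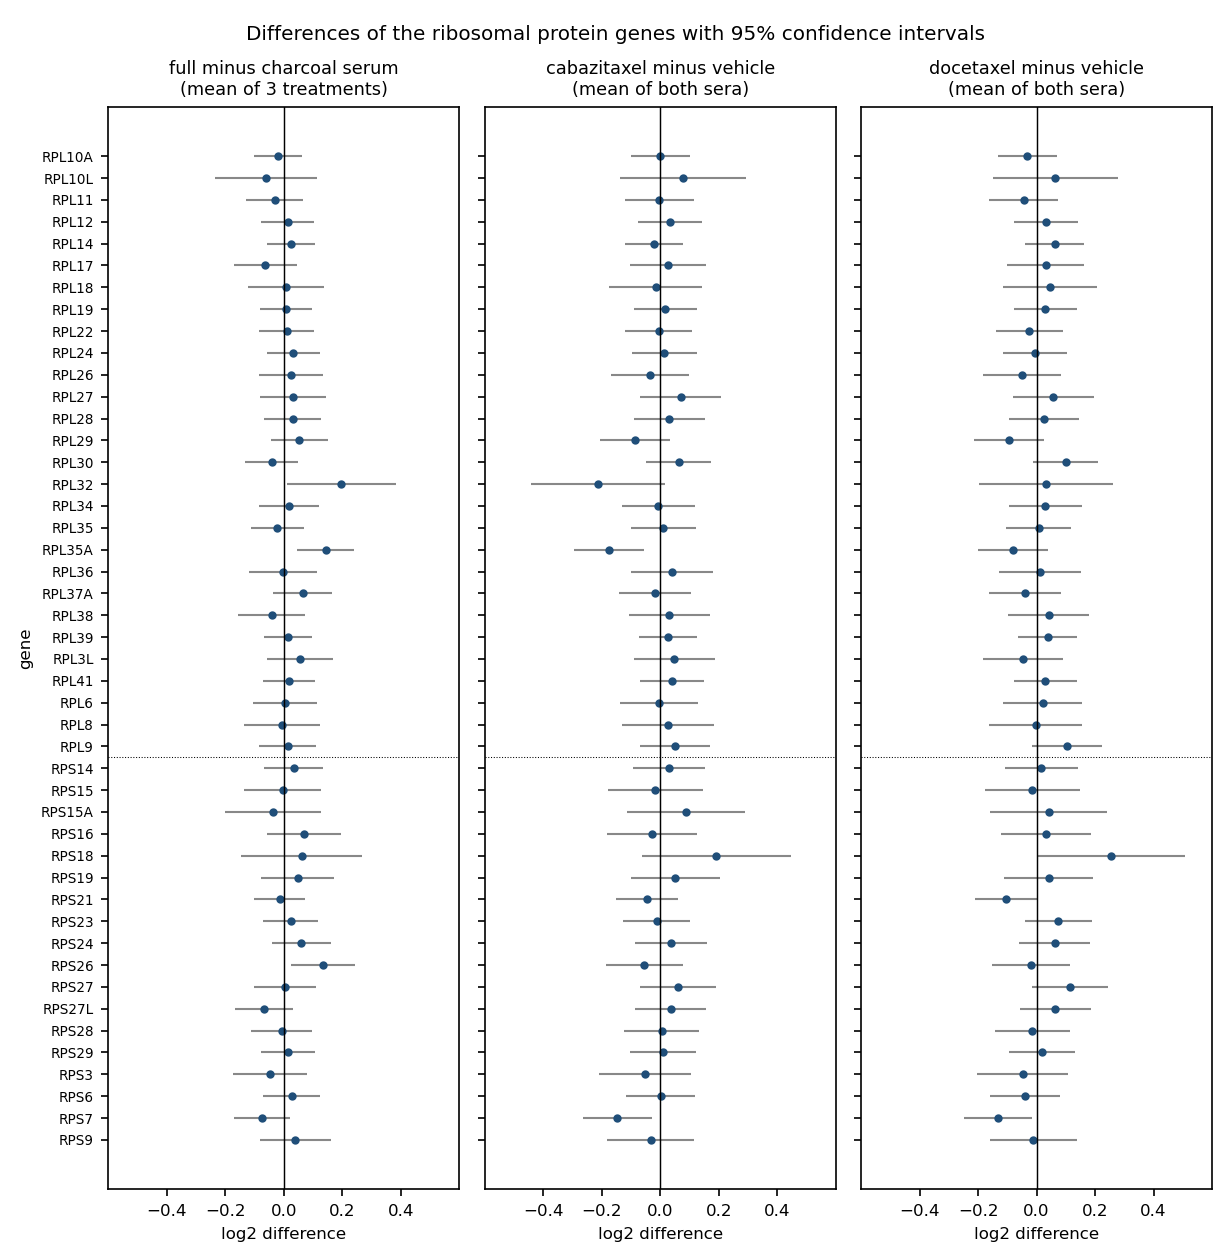
Points are the log2 differences of the 46 tested ribosomal protein genes and lines their 95% confidence intervals, for full minus charcoal serum over 3 treatments, cabazitaxel minus vehicle and docetaxel minus vehicle over both sera, with the large subunit above the dotted line. Most intervals cross 0, and RPL35A, RPS7, RPS26, RPL32 and RPS18 are those that miss it in at least 1 panel without passing the test across all genes.

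The taxanes were also compared directly, at the same dose and time. Of 3 such comparisons, in each serum and over both, limma called 0 of 46 members and 0% of all genes in each. At an unadjusted p under 0.05 there was 1 member in charcoal serum (5.41% of all genes), 1 in full serum (2.83% of all genes) and 1 over both (4.56% of all genes). In charcoal serum it was RPL35A with -0.21 for cabazitaxel minus docetaxel (SE 0.077, interval -0.38 to -0.036, limma, adjusted p = 0.886). In full serum it was RPL14 with -0.14 (SE 0.064, interval -0.29 to -0.0028). Over both sera it was RPL32 with -0.25 (SE 0.10, interval -0.48 to -0.016, limma, adjusted p = 0.958). RPS18 had 0.13 in charcoal and -0.26 in full serum, and the latter was 0.076 without the first docetaxel array. The intervals of 45, 44 and 46 of the 46 members lay within 0.5 of 0, beside 93.7%, 95.3% and 99% of all genes. This bounds a difference between the drugs and does not show that they act alike. In charcoal serum RPS18, RPL27 (0.12) and RPL10L (0.075) had the highest values, and RPL32 (-0.26), RPL35A and RPS16 (-0.10) the lowest. In full serum RPS21 (0.13), RPL3L (0.12) and RPL26 (0.086) had the highest, and RPS18, RPL32 (-0.23) and RPS27 (-0.15) the lowest. Over both sera RPL3L (0.094), RPS21 (0.061) and RPS15A (0.046) stood at the upper end, and RPL35A (-0.092) and RPS23 (-0.085) followed RPL32 at the lower.

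Whether a drug acted differently in the 2 sera was tested as an interaction. For cabazitaxel limma called 0 members (0% of all genes) and 0 had an unadjusted p under 0.05 (3.42% of all genes). RPL32 had the lowest interaction, -0.43 (SE 0.21), followed by RPS18 with -0.21 and RPL10L with -0.19. RPS7 (0.18), RPL6 (0.15) and RPS3 (0.15) had the highest. For docetaxel limma called 0 members (0% of all genes), and 1, RPL32, had an unadjusted p under 0.05 (3.61% of all genes) with -0.46 (SE 0.21, interval -0.92 to -0.0013, limma, adjusted p = 0.999). RPL30 (0.22), RPL14 (0.20) and RPL18 (0.19) had the highest and RPL35A (-0.17) and RPS16 (-0.16) the next lowest interactions. The interactions have wide intervals, and those of 43 and 42 of the 46 members lay within 0.5 of 0. Among all genes it was 76% and 75.2%. Without the second array of full serum with vehicle the interaction of RPL32 was -0.17 for cabazitaxel and -0.20 for docetaxel.

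Members at the ends of these comparisons include genes with and without a TOP start. RPL35A, RPS21, RPL14, RPS18 and RPS27 have it, while RPS7, RPS26 and RPS27L do not have it at the annotated first base. RPL32, with the largest serum difference in vehicle, has it at none of its annotated starts. These genes are examples and not a count of the members at the ends. The values of RPS18 and RPS27 come from clusters that stood among genes of another chromosome. Over the mean of the 3 treatments full minus charcoal serum had a median of 0.024 in the 28 members with a TOP start and 0.00058 in the other 14. For cabazitaxel over both sera the medians were -0.00073 and 0.0067, and for docetaxel 0.021 and 0.026. The groups of members were not compared by a test.

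The probe sets that carry the names of the members were checked for where they stand on the array. Of the 47 transcript clusters, 31 had IDs that stood among genes of the same chromosome and strand as the gene, and 3 stood among genes of another chromosome. The latter were RPS18 (cluster 16956928, among chromosome 3 genes such as SENP7), RPS27 (among chromosome 12 genes) and RPS28 (among chromosome 11 genes). The clusters of RPL19 and RPL39 stood among genes of their chromosome on the other strand. Ribosomal protein genes have many processed pseudogenes of nearly the same sequence, and which copies each probe set reads was not tested. Members measured by such clusters are therefore uncertain, as are RPL12 and RPL41, whose clusters had scattered neighbours. Without those 5 and RPL12 and RPL41, 39 tested members were left. Among the 47 clusters, 4 had neighbours on mixed strands, RPL35A among them. For another 5 the strand was not checked, RPL30 and RPS15A among them. The tested members of both kinds are in the 39. The 39 are part of the same fit with 0 called members, so their count of 0 was fixed and says nothing about the clusters left out.

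The 2 clusters named RPS18, a protein of the head of the small subunit, gave different values. Cluster 16956928 read 7.44 and 7.62 in charcoal serum with vehicle, 7.76 and 7.90 with cabazitaxel, and 7.69 and 7.70 with docetaxel. In full serum it read 7.59 and 7.62, 7.65 and 7.74, and 8.28 and 7.62. The first array of full serum with docetaxel stood apart from the other 11. The other cluster named RPS18 (17007426) read 6.72 at the lowest and 6.90 at the highest, and its SD over the 12 arrays was 0.0478 against 0.209. For docetaxel minus vehicle over both sera the 2 clusters gave 0.26 and 0.0071, and for cabazitaxel 0.19 and -0.021.

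For RPL39 and RPL19 the cluster with the higher mean was the steadier one. The other cluster of RPL39 had an SD of 0.129 over the 12 arrays against 0.0238, and differed by 0.21 between the sera in vehicle against 0.027. The other cluster of RPL19 had an SD of 0.0933 against 0.0347, and the serum differences in vehicle were -0.23 and -0.0074. The other clusters of RPS18, RPL39 and RPL19 all stood among genes of the same chromosome and strand as the gene. Limma called none of these 3 in any comparison, where it called 0% to 2.31% of all genes in the main fit. With limma the other cluster of RPL19 had an unadjusted p under 0.05 between the sera in vehicle (8.57% of all genes). The same held over 3 treatments (-0.11, 13.5% of all genes), and in full serum for cabazitaxel (0.17, 4.02%) and docetaxel (0.17, 5.2%). RPL41, which encodes the shortest protein of the ribosome, had 5 clusters, and their docetaxel values over both sera ran from -0.089 to 0.086. Only cluster 16752477 stood among genes of the same chromosome and strand as RPL41. It gave -0.089 for docetaxel and -0.10 for cabazitaxel over both sera, with an SD of 0.0883. The cluster used gave 0.031 and 0.041, with an SD of 0.0390. The difference between these clusters was not tested.

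**Figure D4:**
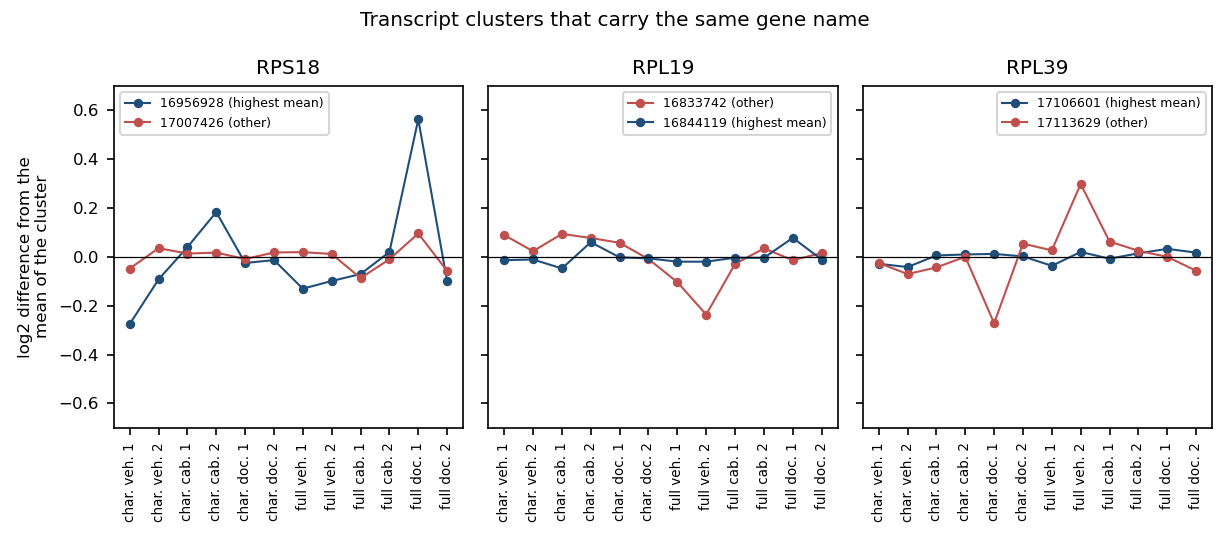
Lines join the 12 arrays (horizontal axis) for each transcript cluster that carries the name RPS18, RPL19 or RPL39, as the log2 difference from the mean of that cluster. For RPS18 the cluster with the highest mean has an SD of 0.209 and the other one of 0.0478, while for RPL19 and RPL39 the cluster with the highest mean is the flatter one.

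The paralogs RPL7L1, RPL22L1, RPL26L1 and RPL36AL, and FAU, which encodes RPS30 fused to a ubiquitin-like protein, fall outside the symbol rule. Limma called 0 of these 5 in every comparison, where it called 0% to 2.31% of all genes. RPL36AL had the largest of their differences between docetaxel and vehicle in full serum, 0.18 (SE 0.074, limma, adjusted p = 0.942). FAU had 0.0041 for full minus charcoal serum over 3 treatments, -0.026 for cabazitaxel and 0.046 for docetaxel over both sera.

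The other gene lists of the translation machinery were described beside the family. Of 73 mitochondrial ribosomal protein genes and 30 genes of ribosome assembly and RNA polymerase I, limma called 0 in each of the 15 comparisons. The same held for 11 translation factors and other TOP mRNAs and for 7 small nucleolar RNA host genes. Among all genes limma called 0% in the drug comparisons and interactions, and 0.315% to 2.31% in full minus charcoal serum. These counts of 0 are therefore no result about the lists. At an unadjusted p under 0.05 the highest counts were 6 mitochondrial genes for docetaxel in full serum (5.2% of all genes), and 4 assembly genes and 3 host genes in full minus charcoal serum over 3 treatments (13.5% of all genes). The medians of the mitochondrial list ran from -0.083 to 0.045 over the arrays and those of the assembly list from -0.077 to 0.074. In the cytosolic family they ran from -0.027 to 0.023. Much of the mitochondrial range lay between arrays of 1 group. The first array was the higher for 60.3% to 84.9% of the mitochondrial genes in every group but full serum with docetaxel, where it was 38.4%. In full minus charcoal serum over 3 treatments 24 of the 30 assembly genes had a positive difference, with a median of 0.036. The median was 0.013 in the cytosolic family and -0.0014 in all genes. With vehicle alone 14 of the 30 assembly genes had a positive serum difference, with a median of -0.0044. With cabazitaxel these values were 24 and 0.086, and with docetaxel 23 and 0.070. HNRNPA1, an RNA-binding protein whose mRNA has a TOP start, had -0.59 for cabazitaxel and -0.54 for docetaxel in full serum against the same vehicle arrays (limma, adjusted p = 0.999 and 0.942). Its log2 values there were 7.10 and 7.76 with vehicle, 6.71 and 6.98 with cabazitaxel, and 6.78 and 7.0 with docetaxel. The second vehicle array stood apart from the other 5, and without it the differences were -0.25 and -0.21.

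**Figure D5:**
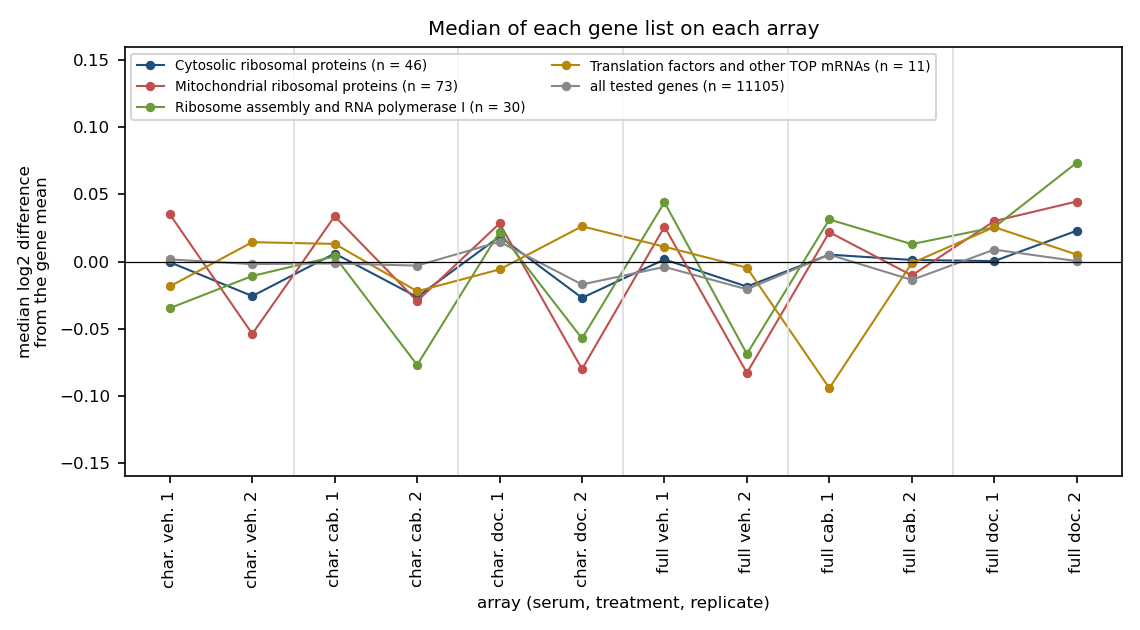
Points are the median, over the genes of each list, of the log2 difference from the gene's mean on each of the 12 arrays (horizontal axis). The 46 cytosolic ribosomal protein genes stay between -0.027 and 0.023, beside -0.083 to 0.045 for the 73 mitochondrial ribosomal protein genes. The mitochondrial value of -0.083 is on the second array of full serum with vehicle, whose first array is at 0.026.

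Among 18 tested genes of growth control by MTOR and MYC, limma called SESN1 and SESN3 in full against charcoal serum in each treatment. Both encode sestrins, which restrain MTOR complex activity. In vehicle their differences were -0.75 (SE 0.096, limma, adjusted p = 0.0060) and -0.81 (SE 0.11, limma, adjusted p = 0.010). Over the 3 treatments MTOR was also called with 0.23 (SE 0.053, limma, adjusted p = 0.0465), beside SESN1 with -0.76 and SESN3 with -0.73. MYC, which drives transcription of ribosomal protein genes, had a difference of -0.015 (interval -0.16 to 0.13). In the same comparisons the ribosomal protein genes had medians of 0.0014 and 0.013 with 0 called.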

How the data were processed

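RNA of 12 samples was hybridised to 1-colour arrays. The authors deposited probe-set intensities after RMA, of unnamed version, according to the submitters' processing notes. Their linear values span 17.3 to 6307. A filter on low-expressing genes is mentioned without its threshold, and the array's genome build is not given in the sources used here. The log2 of each intensity was taken. The annotation named 15835 of 44629 transcript clusters with 1 symbol and the other 28794 with none. A gene was tested where 2 or more arrays exceeded the overall median (log2 4.48). The test was limma 3.58.1 (R 4.3.3), with all 12 arrays in 1 fit of 6 group means (6 residual and 5.08 prior degrees of freedom). Tests were two-sided, with Benjamini-Hochberg adjustment over 11105 genes in each of 15 comparisons and calls at an adjusted p under 0.05. Differences are in log2 units, and SE and 95% intervals are those of limma. The methods' t-test is Student's test on the same values, run for drug against vehicle. The script was tested on simulated data.

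The members, gene lists, comparisons and the alternatives of the closing section were chosen with earlier results of these data known. The text names, in each comparison, the 3 members with the highest and the 3 with the lowest difference, the paralogs, the 5 members with the largest and smallest SD, and the genes called in other lists. RPL14, RPL6, and the members picked by the t-test were named after their values were seen, as were RPL36AL and HNRNPA1 beyond the list rule. Cluster IDs were placed by the 3 named clusters on each side. Alternatives were another scaling, filter, choice of cluster or fit, and leaving out each array.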

Additional observations from a re-analysis of the deposited data

How the results depend on the processing

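The count of called members was 0 in 235 of 237 alternative values. The exception was RPL32 in full against charcoal serum, in vehicle and over 3 treatments, without the first array of full serum with vehicle. That fit holds 1 array of this group, the one that stood above all others, and no measure of the spread within it. Leaving out 1 array at a time, these counts ran from 0 to 1. In the drug comparisons and interactions the main fit called 0% of all genes, so a count of 0 members there is no result about the family. For full minus charcoal serum it called 0.396% of all genes with vehicle and 2.31% over 3 treatments. The alternative over 39 members is a part of the main fit and could only give 0. Of 818 alternative values of single members that differed from the reported ones, 803 kept their direction. All 818 belong to the 3 highest and 3 lowest members of each comparison, picked by their size in the same data. Their direction was thus favoured in advance, and the count says nothing about the other members. After quantile normalization the median of the members for docetaxel minus vehicle was -0.031 in charcoal serum, -0.0029 in full serum and -0.0064 over both. The cause was not tested.

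Without 1 array at a time the median of the members ran from -0.019 to 0.030, 0.0071 to 0.048 and -0.0038 to 0.032 for docetaxel minus vehicle in charcoal serum, in full serum and over both. It ran from -0.00018 to 0.035 for cabazitaxel minus vehicle in full serum, from -0.025 to 0.018 for cabazitaxel minus docetaxel in charcoal serum and from -0.026 to 0.010 over both. It ran from -0.012 to 0.029 and 0.012 to 0.043 for full minus charcoal serum with cabazitaxel and docetaxel, and from -0.023 to 0.022 and -0.012 to 0.048 for the interactions of cabazitaxel and docetaxel.

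The following members changed sign when an array was left out. RPS15 ran from -0.24 to 0.031 (docetaxel minus vehicle, charcoal), RPS3 from -0.26 to 0.012 (cabazitaxel minus vehicle, charcoal) and RPL32 from -0.46 to 0.066 (docetaxel minus vehicle, full). For cabazitaxel minus docetaxel, RPL10L ran from -0.070 to 0.22 (charcoal), RPS15A from -0.043 to 0.13 (both sera), and in full serum RPL3L from -0.0049 to 0.25, RPL26 from -0.0086 to 0.18 and RPS18 from -0.59 to 0.076. RPL3L ran from -0.018 to 0.24 (full minus charcoal, cabazitaxel) and from -0.028 to 0.23 (cabazitaxel minus vehicle, full), RPS18 from -0.082 to 0.58 (full minus charcoal, docetaxel) and RPS16 from -0.32 to 0.0043 (docetaxel interaction). Chosen after seeing the data, the other cluster of RPS18 gave -0.021 for cabazitaxel minus vehicle over both sera.

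The labels do not say what the replicate numbers mark. The correlation of same-numbered deviations was above 0 in 14 and above 0.1 in 10 of 15 pairs of groups, from -0.049 to 0.33, so that not every pair passed 0.1 and the numbers were not taken to pair the arrays. In this balanced design the replicate block cannot move a difference, so the median of 0.023 for docetaxel over both sera says nothing of stability. With it limma called 0 members in each of the 15 comparisons, and 70, 47, 62 and 359 of all genes for full minus charcoal serum with vehicle, cabazitaxel, docetaxel and over 3 treatments, against 44, 44, 35 and 256. Dim probes limit the result, since 13 tested members had linear means under 64.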
